A study of Homo sapiens with 18 samples.

Results

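Kinesins are ATP-driven motor proteins that move along or remodel microtubules. The rows examined here are the protein-coding genes of the count table with a KIF or KIFC symbol (the letters, a number and an optional letter), which leaves out the kinesin-binding genes KIFAP3 and KIFBP. The rule found 42 genes among the 58302 genes of the table, from 13 kinesin families. By textbook role, 14 were classed as mitotic, 15 as cargo transport and 13 as other.

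The libraries came from U87MG, an established human glioblastoma cell line. Control cells were untreated under normal growth conditions, and the other cells had received Erastin (10 μM, 72 h), a blocker of the cystine/glutamate antiporter that is used to trigger ferroptosis, in which oxidised membrane lipids kill the cell. RNA-seq was available for 2 libraries of control cells and 2 of Erastin-treated cells, 4 libraries in all. The replicates are numbered but not said to be separate cultures, so p-values measure the spread between these libraries, which may be technical.

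Mitotic kinesins build and focus the spindle, shorten microtubules at kinetochores, move chromosomes to the spindle equator and organise the midzone for cytokinesis. They are made mainly in dividing cells. Transport kinesins are present in most cell types and carry vesicles, mitochondria, lysosomes and ciliary cargo along microtubules, often through light chains and adaptor proteins.

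The counts on genes totalled between 29412656 and 31513519 per library. They were expressed as CPM, scaled to libraries of a common size with TMM factors between 0.9711 and 1.018, and levels of different genes were compared as RPKM, which also divides by exon length in kb. A gene was called when edgeR's quasi-likelihood test gave an adjusted p under 0.05 and a log2 fold change (Erastin against control) of at least 1 in size. Over the 16751 genes tested, 9.34% were called lower and 6.24% higher after Erastin, and the median log2 fold change was -0.0026.

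Markers were read to check the labelled cell line. The 4 mesenchymal glioma markers VIM, CD44, FN1 and NES summed to 8950 and 9340 CPM in control and 3150 and 3370 CPM in Erastin libraries. FN1, fibronectin, made up most of the control sum and was at 4960 and 5420 CPM in control and 473 and 520 CPM in Erastin libraries, called lower by edgeR with a log2 fold change of -3.39. NES, nestin, was at 41.8 and 31.3 CPM against 3.51 and 2.45 CPM and was also called lower, at -3.62. VIM, at 2550 and 2480 CPM against 1610 and 1720 CPM, and CD44, at -0.36 on the log2 scale, were not called. The 5 glial markers summed to at most 4.71 CPM in any library, with AQP4 at 0 counts throughout and S100B at 0, 0, 0 and 2 counts. The 3 immune markers summed to at most 0.7 CPM. Among the 4 neuronal markers RBFOX3 and STMN2 had under 10 counts in every library, whereas SNAP25, a synaptic fusion protein, was at 35.0 and 39.1 CPM in control and 3.18 and 4.30 CPM in Erastin libraries. SYT1, a calcium sensor of synaptic vesicles, was at 17.4 and 18.1 CPM in control and 9.39 and 8.56 CPM in Erastin libraries.

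Of the 42 kinesins, 34 had enough counts to be tested, 11 mitotic, 14 transport and 9 other. In total, 13 of the 34 were called lower (38.2%) and 1 was called higher (2.94%), beside 9.34% and 6.24% of all tested genes. All 11 tested mitotic kinesins were called lower, with a median log2 fold change of -3.21. This count rests on the classes, which were drawn up with earlier results of these data known and place KIF2A, a motor that also acts at spindle poles, among the other kinesins. With KIF2A counted as mitotic, a choice made after seeing the data, 11 of 12 were called lower and the median was -3.14. None of the 14 tested transport kinesins was called in either direction by edgeR's quasi-likelihood test, and their median was 0.02. At an unadjusted p under 0.05, 5 of them were lower and 6 higher, beside 26.7% and 26.5% of all tested genes. DESeq2 called 0 of them, beside 6.88% lower and 4.41% higher of the 20339 genes to which it gave an adjusted p. At an adjusted p under 0.05 with no limit on size, 23.7% of all tested genes were lower and 23.2% higher, beside 4 transport kinesins lower and 6 higher. Both Erastin libraries lay below both control libraries for 36.9% of all tested genes and above them for 36.7%. For the kinesins the numbers were 22 of 34 below and 9 of 34 above.

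**Figure D1:**
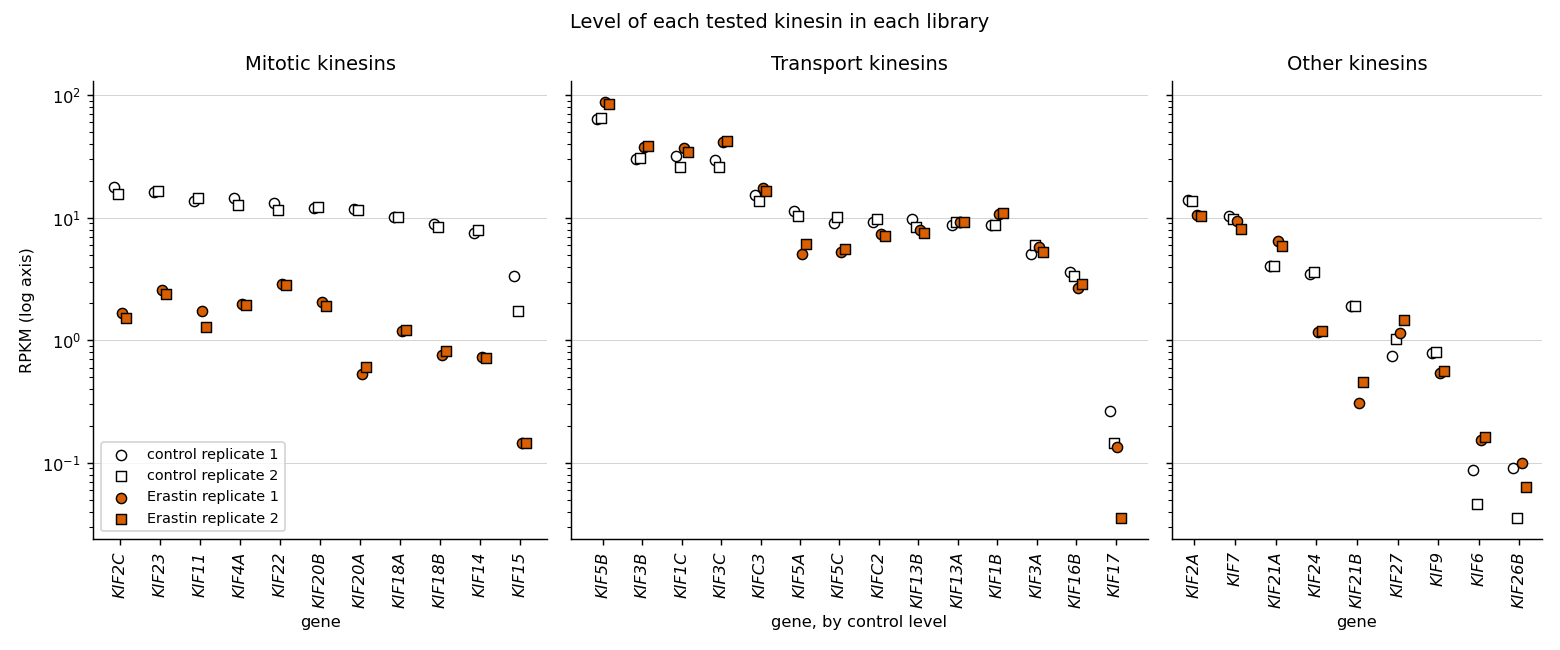
RPKM (log axis) of the 34 tested kinesins in each library, by class and ordered by control level; open symbols are control libraries, filled symbols Erastin libraries, circles replicate 1 and squares replicate 2. The 11 mitotic genes separate by treatment with a wide gap. Of the 14 transport genes, 6 have both Erastin libraries below control and 6 above, beside 36.9% and 36.7% of all tested genes. The groups overlap in KIF13A and KIF3A.

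The spindle-building motors were examined first. KIF11 (ENSG00000138160, chr10:92593286-92655395), the kinesin-5 that slides antiparallel microtubules apart to make the spindle bipolar, was at 66.2 and 70.2 CPM in control libraries and at 8.53 and 6.27 CPM in Erastin libraries. On the log2 scale it changed by -3.21 (standard error 0.135; adjusted p = 5.44e-09 by edgeR's quasi-likelihood test). KIF15 (ENSG00000163808, chr3:44761717-44873376), a kinesin-12 that helps to keep the spindle bipolar, had 547 and 285 counts in control and 23 and 24 in Erastin libraries. The control replicates of KIF15 differed far more than those of the other mitotic kinesins, but both stood above the Erastin libraries. KIF15 fell by 4.13 on the log2 scale (standard error 0.337, adjusted p = 1.28e-06 by edgeR). With 1 library left out its log2 fold change lay between -4.55 and -3.58.

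Microtubule ends and chromosomes are the sites of action of the next group. KIF2C (ENSG00000142945, chr1:44739818-44767767), the kinesin-13 also called MCAK that depolymerises microtubules at centromeres, was at 64.9 and 57.1 CPM in control and 6.12 and 5.54 CPM in Erastin libraries. KIF18A (ENSG00000121621, chr11:28020620-28108308), a kinesin-8 that damps chromosome movement at the metaphase plate, was at 47.1 and 47.3 CPM in control against 5.58 and 5.67 CPM after Erastin. Its relative KIF18B (ENSG00000186185, chr17:44924709-44947711), which acts on astral microtubules, was at 41.0 and 38.8 CPM in control against 3.54 and 3.82 CPM. In each of these genes the replicates lay close together and the groups were far apart. The log2 fold changes by edgeR were -3.39 for KIF2C (adjusted p = 1.54e-09), -3.07 for KIF18A (adjusted p = 2.20e-09) and -3.44 for KIF18B (adjusted p = 2.20e-09).

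KIF22 (ENSG00000079616, chr16:29790719-29805385), the kinesin-10 that binds chromosome arms, fell the least of the mitotic group. It was at 56.7 and 49.8 CPM in control and 12.4 and 12.3 CPM in Erastin libraries, a log2 fold change of -2.11 with a standard error of 0.110 (adjusted p = 3.14e-08 by edgeR). Its 95% interval, -2.35 to -1.87, lay apart from that of the next gene, KIF20B, at -2.81 to -2.42; the difference between the genes was not tested. KIF4A (ENSG00000090889, chrX:70290090-70420832), a chromokinesin that also works at the anaphase midzone, was at 66.4 and 57.0 CPM in control and 8.93 and 8.82 CPM after Erastin. Its log2 fold change was -2.80 (adjusted p = 4.43e-09 by edgeR). Read as words of 31 bases, 28.36% of the longest KIF4A transcript also occurred elsewhere on the primary chromosomes, and 23.66% of that of its intronless relative KIF4B. For KIF22 and KIF18B the values were 14.75% and 11.8%, and KIF22 shares 13.01% of its exon bases with a gene on the opposite strand. Such multiply matching reads are not in the counts.

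Cytokinesis motors included KIF23, the mitotic kinesin with the most CPM in control cells. KIF20A (ENSG00000112984, chr5:138178719-138187715), the kinesin-6 that brings the chromosomal passenger complex to the midzone, was at 46.7 and 45.7 CPM in control libraries and 2.11 and 2.42 CPM in Erastin libraries. That left 4.91% of the control level, a log2 fold change of -4.35 with a standard error of 0.137 (adjusted p = 7.21e-10 by edgeR). No kinesin had a larger fall with all 4 libraries, but the 95% intervals of KIF20A, -4.65 to -4.05, and KIF15, -4.87 to -3.40, overlap, and without control replicate 2 KIF15 stood at -4.55 and KIF20A at -4.37. KIF20A shares 200 of its 3958 exon bases (5.05%) with BRD8 and CDC23 on the opposite strand, and the counting ignored strand. KIF23 (ENSG00000137807, chr15:69414246-69448427), the kinesin-6 of the centralspindlin complex, was at 103 and 105 CPM in control and 16.4 and 15.3 CPM after Erastin. Its change was -2.71 on the log2 scale (standard error 0.0850, adjusted p = 7.04e-10 by edgeR). For both genes the spread between replicates was small beside the distance between groups. KIF20B (ENSG00000138182, chr10:89701610-89774939), another kinesin-6 of late cytokinesis, was at 83.0 and 83.3 CPM against 14 and 13.1 CPM. KIF14 (ENSG00000118193, chr1:200551497-200620734), a kinesin-3 that recruits citron kinase to the midbody, was at 55.0 and 57.7 CPM against 5.28 and 5.25 CPM. Log2 fold changes were -2.62 for KIF20B and -3.42 for KIF14 (adjusted p = 1.26e-09 and 1.01e-09 by edgeR).

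Across the 11 genes the Erastin level was between 4.91% and 23.2% of the control level, from 20.4-fold to 4.31-fold lower. The adjusted p-values by edgeR lay between 7.04e-10 and 1.28e-06. All 11 were called lower in the main fit and in each of 12 alternative fits, 4 of which left out 1 library.

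The other mitotic members, KIFC1, KIF4B and KIF2B, could not be tested. KIFC1, the minus-end directed kinesin-14 that bundles spindle microtubules and clusters centrosomes, had only 6 and 5 counts in control and 2 and 1 in Erastin libraries. In its longest transcript 88.27% of the 31-base words also occurred on alternate scaffolds of GRCh38, which would make their reads match more than 1 place if the aligner's index held those scaffolds. Whether it did is not given in the sources used here, so the low count of KIFC1 is not read as low expression. KIF4B had 4, 6, 5 and 13 counts. KIF2B had 0 counts in every library, which allows up to 3 counts, or 0.0955 to 0.1 CPM.

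**Figure D2:**
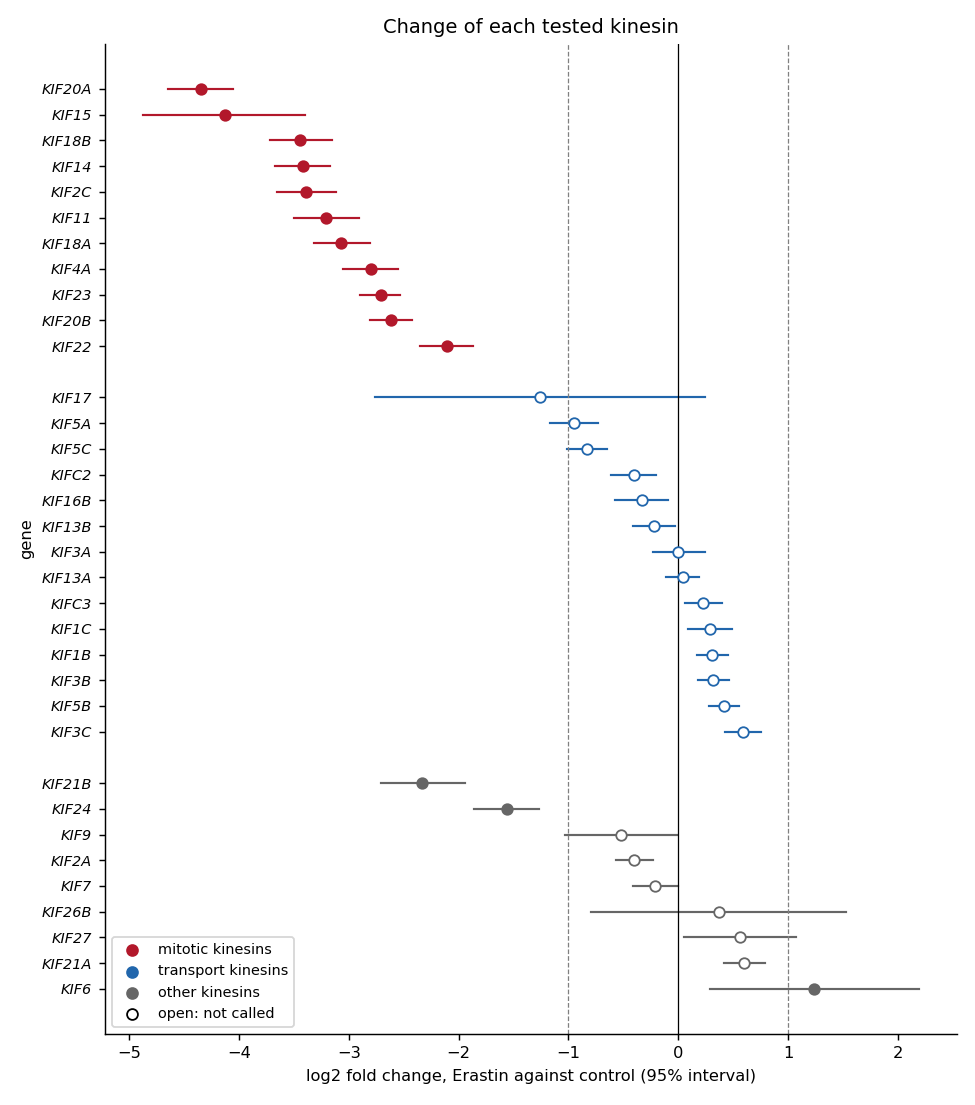
Log2 fold change (Erastin against control) of the 34 tested kinesins with 95% intervals, coloured by class; filled points were called, open points were not, and dashed lines mark -1 and 1. Mitotic genes run from -4.35 to -2.11, and transport genes from -1.26 to 0.59.

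Genes of dividing cells moved with the mitotic kinesins. All 4 dividing-cell markers were lower: log2 fold changes were -4.62 for CDC20, -3.89 for MKI67, -3.31 for TOP2A and -0.49 for PCNA, of which PCNA alone was short of the size limit and not called by edgeR. Their summed level was 829 and 787 CPM in control and 109 and 113 CPM in Erastin libraries, and none was at 0. In bulk RNA, fewer dividing cells and less mitotic RNA per cell cannot be told apart. The part of the fall that goes with the share of dividing cells was not tested.

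CENPE, the kinesin-7 of the kinetochore whose symbol falls outside the rule, was at 53.0 and 55.3 CPM in control and 4.95 and 6.49 CPM in Erastin libraries, a log2 fold change of -3.24 (adjusted p = 5.17e-09 by edgeR). STARD9, a kinesin of the pericentriolar material, was at 27.1 and 24.4 CPM against 17.3 and 17.1 CPM, a log2 fold change of -0.58 (adjusted p = 1.42e-03 by edgeR), under the size limit. Proteins that load, activate or bind mitotic kinesins were counted from a list of 17 genes, all tested. Of these, 15 were called lower and 0 higher by edgeR, beside 9.34% and 6.24% of all tested genes, with a median log2 fold change of -2.76. All 17 were lower at an unadjusted p under 0.05, beside 26.7% of all tested genes, and DESeq2 also called 15 lower and 0 higher, beside 6.88% and 4.41%. The largest falls were those of PLK1, the mitotic kinase that KIF20A brings to the midzone, at -4.51, CCNB1, the cyclin of the mitotic kinase CDK1, at -3.82, HMMR, a spindle-assembly factor, at -3.81, and BIRC5, survivin of the chromosomal passenger complex, at -3.53. PLK1 was at 118 and 101 CPM in control and 4.18 and 5.38 CPM after Erastin. CCNB1 was at 167 and 169 CPM against 13.1 and 10.8 CPM. HMMR was at 59.1 and 56.6 CPM against 5.08 and 3.15 CPM, and BIRC5 at 115 and 106 CPM against 8.86 and 10.2 CPM. The groups did not overlap in any of these 4 genes. The 2 genes not called were ECT2, which binds centralspindlin, at -0.87, and CKAP5, a microtubule polymerase, at -0.75.

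Promoters of the mitotic kinesins were read next, because these genes moved together. The sequences are those of RefSeq (GRCh38.p14), from 250 bases before to 50 bases after each gene's start, and 34 of the 42 kinesins had one. As background, many genes expressed in G2 and M phase carry a cell cycle genes homology region (CHR) near the start, and the CCAAT box is the element bound by NF-Y. The letters searched were TTTGAA or TTCGAA for the CHR and CCAAT for the box, on both strands, so that TTCAAA and ATTGG also count. In the kinesin windows 0 matches of the CHR overlapped one of the CCAAT box. A CHR match lay in 11 of the 14 mitotic kinesins (78.6%) and in 9 of the 11 called lower (81.8%), all but KIF2C and KIF20A. It lay in 1 of 11 transport kinesins (9.09%), in 1 of 9 other kinesins (11.1%) and in 19.5% of all 27305 genes with a promoter sequence. In the mitotic kinesins KIF14, KIF18B, KIF4B, KIFC1 and KIF20B the CHR letters began only after the start, at positions between 2 and 31. A CCAAT match lay in 9 of the 11 mitotic kinesins called lower (81.8%), all but KIF2C and KIF15. It lay in 4 of 11 transport kinesins (36.4%), in 3 of 9 other kinesins (33.3%) and in 39.7% of all genes with a promoter sequence.

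The following stretches show where the matches lie, 5′ to 3′ on the gene's strand with the CHR and CCAAT letters in capitals. KIF11 (chr10:92592980-92593129, plus strand) and KIF4A (chrX:70289980-70290089, plus strand) are mitotic kinesins with both motifs outside annotated exons, and KIF5B (chr10:32056432-32056575, minus strand) is the only 1 of the 11 transport kinesins read that has a CHR match.
KIF11: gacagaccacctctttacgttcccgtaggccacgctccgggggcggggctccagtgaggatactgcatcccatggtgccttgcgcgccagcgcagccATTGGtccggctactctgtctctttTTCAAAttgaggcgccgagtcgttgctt
KIF4A: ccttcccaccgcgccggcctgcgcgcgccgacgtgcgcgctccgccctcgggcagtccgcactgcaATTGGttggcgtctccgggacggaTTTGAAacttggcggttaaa
KIF5B: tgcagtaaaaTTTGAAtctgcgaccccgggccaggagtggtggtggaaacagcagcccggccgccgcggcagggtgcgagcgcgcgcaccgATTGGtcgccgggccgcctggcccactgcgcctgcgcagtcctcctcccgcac
In KIF11 the CHR letters began 28 bases before the start and the CCAAT letters 53 bases before it. In KIF4A they began 34 and 58 bases before the start. In KIF5B the CHR letters began 140 bases before the start, farther away than in KIF11 or KIF4A.

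For other mitotic kinesins 30 bases around 1 motif are shown, from KIF23 (chr15:69414282-69414311, plus strand), KIF18A (chr11:28108157-28108186, minus strand), KIF22 (chr16:29790712-29790741, plus strand), KIF15 (chr3:44761747-44761776, plus strand) and KIF20A (chr5:138179033-138179062, plus strand), a gene with no CHR match.
KIF23: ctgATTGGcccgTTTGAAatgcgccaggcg
KIF18A: gctgaggaaagtggcttgggTTTGAAtatt
KIF22: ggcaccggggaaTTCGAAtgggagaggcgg
KIF15: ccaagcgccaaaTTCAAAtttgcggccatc
KIF20A: cttccctatctgATTGGccgaacgaacgca
KIF20A held 2 CCAAT matches, beginning 94 and 67 bases before the start, and KIF2C held neither motif in its window. A match is a description of letters, and nothing about binding was measured.

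The tested transport kinesins lay between -1.26 and 0.59 on the log2 scale. KIF5B (ENSG00000170759, chr10:32009010-32056431), the ubiquitous conventional kinesin (kinesin-1) heavy chain, was at 377 and 385 CPM in control and 519 and 498 CPM in Erastin libraries. The groups did not overlap, and the log2 fold change of 0.42 with a standard error of 0.0628 (adjusted p = 1.95e-04 by edgeR) was under the size limit. Per exon length it was the most abundant kinesin in both groups, at 64.9 ± 0.996 RPKM (SD, n = 2) in control and 86.5 ± 2.57 RPKM (SD, n = 2) in Erastin-treated cells.

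The neuronal kinesin-1 heavy chains lay on the other side. KIF5A (ENSG00000155980, chr12:57549998-57586632) was at 70.6 and 65.2 CPM in control and 31.8 and 38.5 CPM in Erastin libraries. Its log2 fold change was -0.95 (95% interval -1.17 to -0.73, adjusted p = 1.24e-05 by edgeR), just short of the size limit. Without control replicate 2 it was -1.01 and without Erastin replicate 2 it was -1.09, past the limit and called, whereas without control replicate 1 or Erastin replicate 1 it was -0.89 or -0.82. KIF5C (ENSG00000168280, chr2:148875250-149026759) was at 82.8 and 93.6 CPM against 48.4 and 50.8 CPM, a log2 fold change of -0.83 (adjusted p = 7.23e-06 by edgeR). Of the 31-base words of KIF5C, 62.77% also occurred on alternate scaffolds. Neither group overlapped the other in these genes, so within kinesin-1 KIF5B was higher while KIF5A and KIF5C were lower.

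Kinesin-2 motors drive intraflagellar and vesicle transport as KIF3A with KIF3B or KIF3C, or as KIF17. KIF3C (ENSG00000084731, chr2:25926596-25982749) was at 190 and 167 CPM in control and 268 and 269 CPM in Erastin libraries, the largest positive log2 fold change of the class at 0.59 (standard error 0.0742, adjusted p = 4.58e-05 by edgeR). KIF3B (ENSG00000101350, chr20:32277664-32335011) was at 186 and 187 CPM against 231 and 234 CPM, a log2 fold change of 0.32 (adjusted p = 1.36e-03 by edgeR). In both genes the Erastin libraries lay above the control libraries. Their common partner KIF3A was at 34.6 and 40.9 CPM against 39.8 and 36 CPM, with overlapping groups and a log2 fold change of 0.00 (95% interval -0.23 to 0.24). KIF17 had 36 and 20 counts in control and 18 and 5 in Erastin libraries, a log2 fold change of -1.26 with an interval of -2.76 to 0.24 (adjusted p = 0.156 by edgeR); without Erastin replicate 1 it was -2.49 and called (adjusted p = 0.0479), and without the other libraries it lay between -1.64 and -0.59 and was not called.

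Kinesin-3 transport motors carry synaptic vesicle precursors, mitochondria, lysosomes and endosomes. KIF1B was at 155 and 154 CPM in control and 190 and 193 CPM in Erastin libraries, with a log2 fold change of 0.31 (adjusted p = 2.08e-03 by edgeR). KIF1C was at 277 and 224 CPM against 316 and 296 CPM, with 0.29 (adjusted p = 0.0216 by edgeR), and its control replicates stood farther apart than its Erastin replicates. KIF13A, at 98.0 and 102 CPM against 104 and 102 CPM, had a change of 0.04 with an interval of -0.11 to 0.19, and its groups overlapped. KIF16B, a motor of early endosomes, had a log2 fold change of -0.33 (adjusted p = 0.0297 by edgeR). KIF13B, a motor of the leading edge and of vesicles, had -0.22 (adjusted p = 0.0527 by edgeR). Leaving out 1 library in turn moved KIF13B between -0.34 and -0.10. With 1 library left out in turn, KIF1C ranged from 0.14 to 0.44 and passed an adjusted p under 0.05 in 2 of 4 fits, and KIF16B ranged from -0.40 to -0.27 and passed in 1 of 4. KIF1A, the neuronal motor of dense-core and synaptic vesicles, had 0, 0, 4 and 0 counts and was not tested.

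Among the C-terminal kinesin-14 motors of this class, KIFC3 was at 148 and 130 CPM in control and 167 and 159 CPM in Erastin libraries, a log2 fold change of 0.23 (adjusted p = 0.0272 by edgeR). With 1 library left out in turn it ranged from 0.13 to 0.32 and passed an adjusted p under 0.05 in 1 of 4 fits. KIFC2 was at 41.3 and 43.7 CPM against 32.6 and 31.7 CPM, a log2 fold change of -0.40 (adjusted p = 3.93e-03 by edgeR). KIFC2 shares 17.79% of its exon bases with FOXH1 on the opposite strand. The 95% interval lay within -1 to 1 for 11 of the 14 tested transport kinesins, the exceptions being KIF17, KIF5A and KIF5C.

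Light chains and adaptors couple these motors to cargo. Of 23 such genes 21 were tested, with a median log2 fold change of 0.13. By edgeR's quasi-likelihood test 0 were called in either direction, beside 9.34% lower and 6.24% higher of all tested genes. At an adjusted p under 0.05 alone, 6 of the 21 were higher and 2 lower, beside 23.2% and 23.7% of all tested genes, and at an unadjusted p under 0.05 the numbers were 7 and 3, beside 26.5% and 26.7%. DESeq2 called 0, beside 6.88% lower and 4.41% higher of all genes to which it gave an adjusted p. The largest change was that of FEZ1, a kinesin-1 adaptor with 28, 47, 53 and 87 counts, at 0.90 (adjusted p = 0.0837 by edgeR). FEZ1 was called higher without control replicate 2, at 1.30, and without Erastin replicate 1, at 1.18. Without control replicate 1 its change was 0.58 (adjusted p = 0.316 by edgeR) and without Erastin replicate 2 it was 0.54 (adjusted p = 0.410 by edgeR), and it was not called. KIFAP3, the accessory subunit of kinesin-2, was at 22.8 and 25.2 CPM in control and 25.7 and 26.3 CPM in Erastin libraries, with 0.11 (adjusted p = 0.430 by edgeR). KIFBP, an inhibitor that binds the motor domain of several kinesins, was at 75.9 and 75.1 CPM against 66.8 and 63.6 CPM, with -0.21 (adjusted p = 0.0338 by edgeR).

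Dynein and dynactin, the minus-end directed motor and its activator, were counted from a list of 27 genes, 25 of them tested. By edgeR 0 were called in either direction, beside 9.34% lower and 6.24% higher of all tested genes, and the median log2 fold change was 0.32. At an adjusted p under 0.05 alone, 14 of the 25 were higher and 1, CAPZB, lower, beside 23.2% and 23.7% of all tested genes. At an unadjusted p under 0.05 the numbers were 15 and 1, beside 26.5% and 26.7%. DESeq2 called 0 of these genes, beside 6.88% lower and 4.41% higher of all genes to which it gave an adjusted p. CAPZB, a subunit of actin capping protein that also caps the dynactin filament, was at 237 and 222 CPM in control and 146 and 144 CPM in Erastin libraries, a log2 fold change of -0.66 (adjusted p = 7.56e-06 by edgeR). DYNLL2, a dynein light chain, was at 135 and 122 CPM against 205 and 200 CPM, with 0.66 (adjusted p = 1.34e-05 by edgeR).

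**Figure D3:**
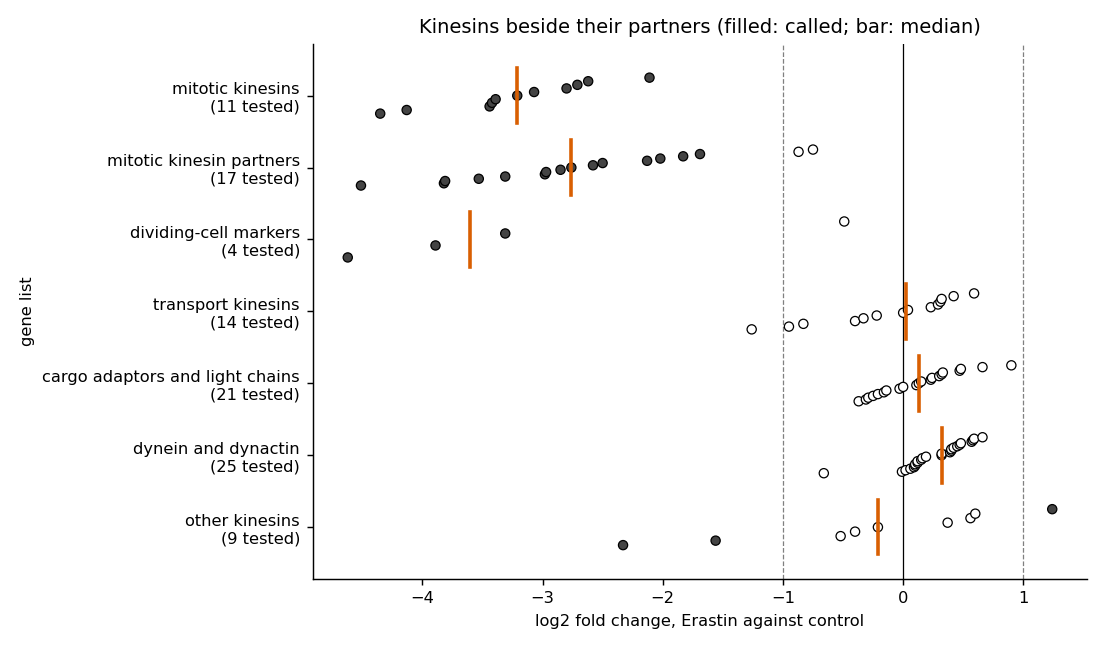
Log2 fold change (Erastin against control) of each tested gene by list; filled points were called, orange bars are list medians and dashed lines mark -1 and 1. Mitotic kinesins (median -3.21) lie beside their partners (median -2.76), and transport kinesins (0.02) beside adaptors (0.13) and dynein and dynactin (0.32).

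The remaining kinesins have roles in cilia, in Hedgehog signalling, at the cell cortex or in neurons. KIF21B (ENSG00000116852, chr1:200969390-201023700), a neuronal kinesin-4 that limits microtubule growth, was at 23.3 and 23.2 CPM in control and 3.74 and 5.51 CPM in Erastin libraries, a log2 fold change of -2.33 with a standard error of 0.177 (adjusted p = 7.32e-07 by edgeR). KIF24 (ENSG00000186638, chr9:34252381-34311371), a kinesin-13 of centrioles that restrains ciliogenesis in cycling cells, was at 21.2 and 22.1 CPM against 7.22 and 7.38 CPM, a log2 fold change of -1.56 with a standard error of 0.133 (adjusted p = 1.87e-06 by edgeR). Both genes were called lower with each library left out in turn, and KIF24 had a CHR match in its promoter window, whereas KIF21B had no window to read.

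KIF6 (ENSG00000164627, chr6:39329990-39725405), a kinesin-9 linked to motile cilia, was the only kinesin called higher. It had 32 and 17 counts in control and 55 and 61 counts in Erastin libraries, a log2 fold change of 1.24 with a standard error of 0.433 (adjusted p = 0.0336 by edgeR). The call was lost with DESeq2 (adjusted p = 0.101), with glmTreat (adjusted p = 0.79), without control replicate 2 (log2 fold change 0.84, adjusted p = 0.193), without Erastin replicate 1 (1.28, 0.0731) and without Erastin replicate 2 (1.2, 0.0887). Its level was low, at 0.0671 ± 0.0297 RPKM (SD, n = 2) in control and 0.159 ± 0.00611 RPKM (SD, n = 2) in Erastin-treated cells.

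KIF21A, a kinesin-4 of the cell cortex, was at 40.8 and 40.9 CPM in control and 64.8 and 59.4 CPM in Erastin libraries, a log2 fold change of 0.60 (adjusted p = 1.00e-04 by edgeR). KIF2A, a kinesin-13 that depolymerises microtubules in neurons and at spindle poles, was at 66.6 and 65.6 CPM against 50.3 and 49.7 CPM, with -0.40 (adjusted p = 1.05e-03 by edgeR). KIF7, a regulator of Hedgehog signalling at the cilium tip, was at 52.0 and 48.5 CPM against 46.6 and 40.5 CPM, with -0.21 (adjusted p = 0.0982). These changes were under the size limit, and that of KIF7 also missed an adjusted p under 0.05. The groups did not overlap in any of the 3 genes. Over all tested genes, both Erastin libraries lay below control for 36.9% and above for 36.7%. The change of KIF7 ranged from -0.31 to -0.11 with 1 library left out in turn. KIF27 had 0.56, KIF9 -0.52 and KIF26B 0.37 on the log2 scale, with adjusted p-values of 0.0687, 0.0893 and 0.602 by edgeR. With 1 library left out in turn KIF27 ranged from 0.34 to 0.82, passing an adjusted p under 0.05 in 1 of 4 fits, whereas KIF26B ranged from -0.16 to 1.19, turning sign, and passed in 0 of 4. KIF9, KIF27 and KIF7 shared 17.91%, 13.13% and 11.78% of their exon bases with genes on the opposite strand, KIF2A shared 8.97% with IPO11 on its own strand, and 57.71% of the words of KIF27 occurred elsewhere on the primary chromosomes. KIF26B had 90.85% of its words on alternate scaffolds. KIF12 had 0, 0, 2 and 2 counts, and KIF19, KIF25 and KIF26A had 0 counts in every library.

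Summed over all 42 genes, kinesin RPKM came to 402 and 386 for control and to 323 and 314 after Erastin. Mitotic kinesins made up 32 ± 0.224% (SD, n = 2) of the sum in control and 5.00 ± 0.0829% (SD, n = 2) after Erastin. The replicates of each group were nearly equal in this share. Transport kinesins made up 59.1 ± 0.0519% (SD, n = 2) and 85.9 ± 0.223% (SD, n = 2). The other kinesins held 8.93 ± 0.172% (SD, n = 2) and 9.11 ± 0.140% (SD, n = 2). These shares do not depend on the scaling between libraries. They include KIFC1, KIF26B and KIF5C as counted, of whose words 88.27%, 90.85% and 62.77% also occur on alternate scaffolds. The mitotic sum was 126 ± 4.68 RPKM (SD, n = 2) in control and 15.9 ± 0.553 RPKM (SD, n = 2) after Erastin, a ratio of 0.126, whereas for transport kinesins the ratio of sums was 1.17. With no division by length, the mitotic share was 24.4% in control and 3.56% after Erastin. With KIF2A counted as mitotic it was 35.5 ± 0.155% (SD, n = 2) and 8.29 ± 0.0483% (SD, n = 2) of summed RPKM.

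The order of levels per length differed between the groups. Among the 15 kinesins with the highest mean RPKM, 8 were mitotic in control cells and 0 in Erastin-treated cells. KIF2C went from rank 5, at 16.7 ± 1.5 RPKM (SD, n = 2), to rank 21, at 1.60 ± 0.113 RPKM. KIF23 went from rank 6, at 16.4 ± 0.195 RPKM, to rank 18, at 2.49 ± 0.123 RPKM. KIF2C and KIF23 did not differ beyond their spread in control cells. KIF1B went from rank 21 to rank 6 with a level of 8.73 ± 0.0200 RPKM in control and 10.8 ± 0.120 RPKM after Erastin, with every mitotic gene below it. KIF5B stayed at rank 1, and KIF3B, KIF1C and KIF3C filled ranks 2 to 4 in both groups, in a different order; in control cells they stood at 30.5 ± 0.106, 29.2 ± 4.31 and 27.8 ± 2.53 RPKM. KIF1C did not differ from either neighbour beyond its spread, whereas both control libraries had more KIF3B than KIF3C.

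Ratios of 2 kinesins of the same family were taken within each library. With 2 libraries against 2, an exact two-sided permutation test cannot give a p under 0.333, and each ratio given here reached that smallest p. In kinesin-13, the log2 ratio of KIF2C to KIF2A (RPKM) was 0.35 and 0.19 in control and -2.65 and -2.78 in Erastin libraries, a difference of -2.98. In kinesin-4, KIF4A to KIF21A went from 1.86 and 1.64 to -1.70 and -1.59, a difference of -3.40. Both ratios crossed 0, so that as counted the mitotic member went from the higher to the lower level of the pair. In control, KIF2C stood only a little above KIF2A. Reads on sequence that KIF2A shares with IPO11 (8.97% of exon bases) or with other places (8.52% of words) were left out. The order of KIF2C and KIF2A in control is therefore unsure. In kinesin-3, KIF14 to KIF1B went from -0.21 and -0.14 to -3.88 and -3.91, and KIF14 to KIF13A from -0.22 and -0.21 to -3.68 and -3.66. KIF14 was thus near its relatives in control cells and well below them after Erastin.

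Ratios of mitotic members of 1 family were also lower after Erastin. KIF20A to KIF20B was -0.04 and -0.07 in control and -1.94 and -1.65 in Erastin libraries, a difference of -1.74. KIF18B to KIF18A was -0.20 and -0.28 in control and -0.65 and -0.56 after Erastin, a difference of -0.37. In both pairs the groups did not overlap. KIFC1 to KIFC3 and KIF15 to KIF12 are not given, since KIFC1 had 14 counts over the 4 libraries and KIF12 was at 0 in control libraries.

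Pairs chosen after their values were seen were KIF5A to KIF5B, KIF5C to KIF5B and KIF21B to KIF21A. KIF5A to KIF5B was -2.51 and -2.65 in control and -4.12 and -3.78 in Erastin libraries, a difference of -1.37. KIF5C to KIF5B was -2.84 and -2.69 against -4.07 and -3.94, a difference of -1.24. KIF21B to KIF21A was -1.08 in both control libraries and -4.38 and -3.70 after Erastin, a difference of -2.96. In all 3 pairs the neuronal relative took a smaller part beside the more widely expressed one after Erastin. Because the pairs were chosen with their values known, this shared direction is no support for a wider pattern. The 4 neuronal markers summed to 52.7 and 57.5 CPM in control and to 12.9 and 13 CPM in Erastin libraries. Nearly all of that sum came from SNAP25 and SYT1. Any link between these markers and the ratios was not tested.

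**Figure D4:**
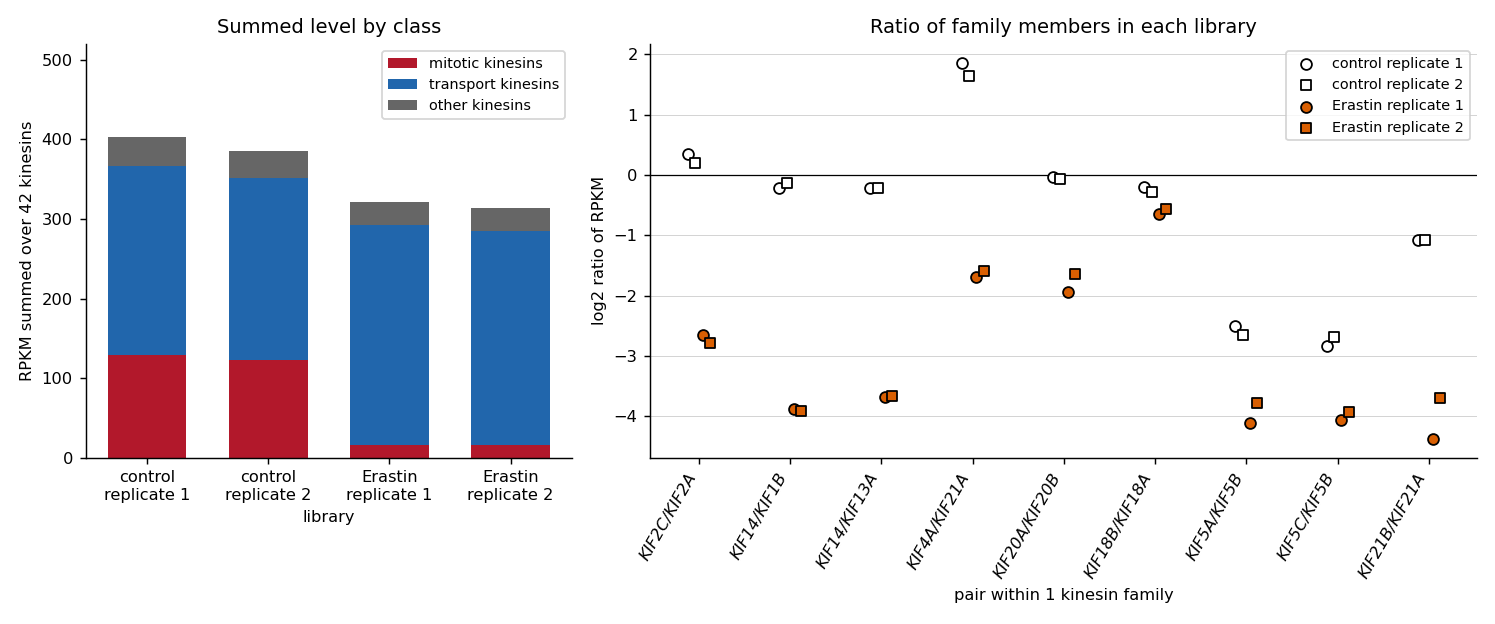
Left, RPKM summed over 42 kinesins in each library, split by class; right, log2 ratio of RPKM of 2 kinesins of 1 family in each library, open symbols control and filled symbols Erastin. The mitotic share is 32.1% and 31.8% in control and 5.06% and 4.94% in Erastin libraries, and each ratio shown is lower in both Erastin libraries. The pairs KIF5A/KIF5B, KIF5C/KIF5B and KIF21B/KIF21A were chosen after their values were seen.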

How the data were processed

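The authors sequenced RNA of 2 control and 2 Erastin-treated U87MG samples. The deposited table holds raw counts of reads per gene, written per the file headers by featureCounts 2.0.3 (the submitters' processing notes list 2.0.4 and HISAT2 2.1.0) with the Ensembl release 90 annotation of GRCh38, unstranded. Each read of a pair counted on its own (a divisor of 2 gives pairs), and reads matching more than 1 place or gene were left out. All deposited values were whole numbers, with no decimals of the kind estimated counts carry. The table also gives exon length (bases), used for RPKM. Totals were 29412656 to 31513519 counts per library; the reads carry no molecular identifiers and are not independent molecules; limits for a count of 0 cover counting error only.

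The analysis used edgeR 4.0.16 in R 4.3.3. Genes were filtered with filterByExpr (minimum count 10), scaled with TMM and compared between groups, as their labels give them, by a quasi-likelihood test. Benjamini-Hochberg adjustment ran over all 16751 tested genes. The biological coefficient of variation was 10.3%. The method was tested on simulated data. Alternatives were RLE factors, library totals, DESeq2 1.42.0, no filter, at least 10 counts in every library, a replicate block, counts per read pair, glmTreat and each library left out in turn. Replicates differed beyond counting noise, so none were merged; this does not show that they were separate cultures.

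Gene symbols were joined by Ensembl identifier. KIF28P fits the symbol pattern but is a pseudogene and was left out. Members, classes and lists were chosen with earlier results of these data known. Per-library values are given for called kinesins, the 3 with the highest mean RPKM in each class, members of the ratio pairs, and others where a sentence turns on them; in partner lists for the called genes with the largest change (at most 4), or the 2 largest where none was called (1 gene so chosen is not reported here), and CENPE, STARD9, KIFAP3 and KIFBP. KIF16B, KIF13B, KIFC2, KIF5A, KIF5C, KIF3A, KIF17, KIF1C, KIF27, KIF9, KIF26B, DYNLL2 and CAPZB, ECT2 and CKAP5 were named after their values were seen. ChIP-seq and HiChIP data were not analysed here.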

Additional observations from a re-analysis of the deposited data

How the results depend on the processing

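Each of the 11 tested mitotic kinesins kept its call in the alternatives run. DESeq2 called 0 kinesins higher, and glmTreat, which tests against the size limit itself, called 0 kinesins higher, 748 of all genes lower and 377 higher. With 1 library left out, the median log2 fold change of transport kinesins lay between -0.05 and 0.09, below 0 without control replicate 1 (-0.05) or Erastin replicate 1 (-0.02), kinesins called higher numbered 0 to 1, transport kinesins called lower 0 to 1, and cargo adaptors called higher 0 to 1. Without division by length the mitotic share of kinesin counts was 24.4% in control and 3.56% in Erastin-treated cells. With KIF2A classed as mitotic, an alternative added after seeing the data, the share of summed RPKM was 35.5% and 8.29%. Same-numbered libraries had a correlation of deviations of 0.0203, and the labels do not pair them; with the replicate block 13 kinesins were called lower and 1 higher, as without it. The ratio of KIF15 to KIF12 could not be computed without a pseudocount. Other ratios kept their sign with a pseudocount of 1. KIFC1, KIF4B, KIF1A and KIF12, with at most 13 counts per library, and the 4 kinesins at 0 were too low to test, and the cause was not tested.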
